A study of Glycine max with 30 samples.

Results

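Whole soybean (Glycine max) seeds of 4 to 6 mm length, the second of 5 seed developmental stages, were compared between the low phytic acid line 3mlpa and its sibling line 3MWT. The stage was represented by 6 of the 30 mRNA libraries of the study, 3 per line, and they were found by the seed length given in their labels. The 3mlpa line is homozygous for mutations in 3 genes (mips1/mrp-l/mrp-n). The 3MWT line is homozygous for the non-mutant alleles of the same genes (MIPS1/MRP-L/MRP-N) and has normal phytic acid. Both are advanced recombinant inbred lines from a cross between a parent that carried mips1 and a parent that carried mrp-l and mrp-n. They are not isogenic and each genotype is 1 line, so the mutations and the other differences between the lines cannot be told apart. Each library was made from a pool of seeds of separate plants grown in 1 chamber, and the 6 libraries of the stage shared a sequencing lane. Seed length, not age, set the stage.

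Phytic acid is the main store of phosphorus in seeds and is built from myo-inositol. MIPS1 makes the first inositol phosphate of that path from glucose-6-phosphate, and the product also feeds the raffinose family oligosaccharides and cell wall polysaccharides. MRP-L and MRP-N are paralogous ATP-binding cassette transporters of the multidrug resistance-associated family. At the early stages soybean seeds change from growth by cell division to the filling of the cotyledons with protein and oil, and the seed coat and endosperm still make up part of the seed.

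MRP-L (Glyma19g35230, chromosome 19) and MRP-N (Glyma03g32500, chromosome 3) are close enough in sequence that the forward primers the study designed for them differed at 3 of 20 positions. The primers are shown because reads from the stretches that the paralogs share cannot be assigned to either gene. Capitals mark the differing bases, which were G6T, T10C and A20G counted from the 5′ end with the MRP-L base first.
MRP-L-F: tggtcGagtTgcagagttcA
MRP-N-F: tggtcTagtCgcagagttcG

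Of 54175 genes in the files, 42269 had at least 10 counts summed over the 6 libraries and were tested. The counts on genes were 25723065, 24597559 and 26646706 in the 3mlpa libraries, against 17588181, 17956887 and 29476755 in the 3MWT libraries. Counts are given below as normalized counts, that is, divided by the library size after trimmed mean scaling and brought to the mean library size. Non-unique alignments per uniquely aligned read were 0.150, 0.141 and 0.161 in 3mlpa, against 0.966, 0.710 and 1.32 in 3MWT, and the lines stood apart in the same way at every stage, with 0.141 to 0.331 in 3mlpa and 0.430 to 1.94 in 3MWT. The root mean square log2 difference between libraries was 0.434 to 0.458 within 3mlpa and 0.463 to 0.524 within 3MWT, and 0.732 to 0.812 between the lines. The labels give no markers of embryo, endosperm or seed coat, and fewer cells of a type and less RNA per cell cannot be told apart in whole seeds.

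At this stage 6019 genes were called differentially expressed genes (DEGs), 14.2 % of those tested, by edgeR's quasi-likelihood test with a Benjamini-Hochberg adjusted p of 0.01 or less. The mutant line had higher levels of 3246 of them (7.68 %, up-regulated) and lower levels of 2773 (6.56 %, down-regulated). The up-regulated genes changed by more, with a median log2 fold change of 0.95 against −0.60 for the down-regulated genes, and 1515 of them (46.7 %) changed at least 2-fold against 573 (20.7 %) of the down-regulated genes. The median over all genes tested was 0.01. A log2 fold change is 3mlpa over 3MWT throughout, and its standard error (SE) had a median of 0.14. The libraries of 3mlpa all lay above those of 3MWT for 10001 genes (23.7 %) and below them for 9445 (22.3 %). The number of DEGs depended on the libraries. It was 3587, 2485 and 2847 without 3mlpa replicate 1, 2 or 3, and 6242, 2249 and 3589 without 3MWT replicate 1, 2 or 3, and 1945 genes (1195 up-regulated and 750 down-regulated) were called in all 6 of these fits.

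The gene of smallest p that the files give a role was Glyma07g35040, listed under regulation of transcription. It had 560.4, 544 and 509.7 normalized counts in 3mlpa seeds, against 29.5, 27.5 and 32.5 in 3MWT seeds. The lines did not overlap and the log2 fold change was 4.15 ± 0.11 (SE), adjusted p = 4.17e-06. It was also called at the other stages, with log2 fold changes of 3.80, 4.60, 4.47 and 4.42 at stages 1, 3, 4 and 5. Among genes without a role in the files, Glyma18g49400 rose most clearly, with 2688, 2764 and 2420.3 normalized counts in 3mlpa seeds, against 238, 280.3 and 227 in 3MWT seeds (log2 fold change 3.41 ± 0.10 (SE), adjusted p = 4.17e-06). Glyma09g15135 fell most clearly, with 36.4, 37.8 and 43.1 normalized counts in 3mlpa seeds, against 556, 580.2 and 523 in 3MWT seeds (log2 fold change −3.82 ± 0.11 (SE), adjusted p = 4.17e-06). Both stood apart in the same direction at the other 4 stages, at 3.08, 3.67, 3.13 and 3.04 for the gene that rose and −3.93, −4.83, −4.94 and −5.02 for the gene that fell.

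Neither of the 2 transporter genes that carry mutations in 3mlpa was called. MRP-L had 1251, 1426 and 1229 normalized counts in 3mlpa seeds, against 1093, 961 and 830.4 in 3MWT seeds. All 3 mutant libraries were above the 3MWT libraries, but the log2 fold change of 0.44 ± 0.11 (SE), adjusted p = 0.0180 did not pass the threshold. Without 3MWT replicate 1 it was 0.54 with an adjusted p of 0.00654 and was called, as it was by the Wald test of DESeq2 (adjusted p = 0.00259). MRP-N had 779, 839 and 860.4 normalized counts in 3mlpa seeds, against 974, 682 and 657 in 3MWT seeds, and the lines overlapped (log2 fold change 0.10 ± 0.14 (SE), adjusted p = 0.618). The mutations in these genes are point mutations, so a transcript level does not check the genotype. The files pair no identifier with MIPS1, and it was not analysed here.

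The steps from myo-inositol to raffinose and stachyose were represented by 8 genes, and none was called by edgeR's quasi-likelihood test, although 4 had an unadjusted p under 0.05. Galactinol synthase joins myo-inositol to galactose, and GalS1 (Glyma19g41550) was the most abundant of its 6 genes. GalS1 had 435, 420.1 and 511 normalized counts in 3mlpa seeds, against 471, 135 and 115 in 3MWT seeds. One library, 3MWT replicate 1, lay within the mutant range while the other 3MWT libraries lay far below it. Over all libraries GalS1 differed by 0.96 ± 0.45 (SE), adjusted p = 0.147 on the log2 scale, and without 3MWT replicate 1 it was 1.87 with an adjusted p of 3.15e-04. Raffinose synthase RS2 (Glyma06g18890) had 385, 279 and 399 normalized counts in 3mlpa seeds, against 314, 228 and 275 in 3MWT seeds, which overlapped (log2 fold change 0.38, adjusted p = 0.112). Stachyose synthase StaSyn1 (Glyma19g40550) had 335, 431 and 438 normalized counts in 3mlpa seeds, against 299.7, 207 and 261 in 3MWT seeds. Its lines did not overlap, and the log2 fold change of 0.65 ± 0.15 (SE), adjusted p = 0.0148 missed the threshold. The Wald test of DESeq2 called StaSyn1 higher (adjusted p = 0.00141) and no other of the 8 genes, but it gave Glyma19g40680 no adjusted p. The other 5 galactinol synthase genes were low, with at most 33.7 normalized counts in any library (Glyma10g28610), and their log2 fold changes were 2.64 (Glyma19g40680), 0.55 (Glyma03g38080), −0.09 (Glyma20g22700), −0.30 (Glyma10g28610) and −1.23 (Glyma03g38910).

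The sugar transporter SugT1 (Glyma08g06420) rose. It had 2670.2, 3127 and 4435 normalized counts in 3mlpa seeds, against 1117, 699 and 701 in 3MWT seeds, and every mutant library lay far above the 3MWT range (log2 fold change 2.03 ± 0.23 (SE), adjusted p = 7.67e-04). Ubiquitin UBQ10 (Glyma07g32020), the gene to which the study scaled its quantitative PCR, had 3857, 3852 and 4152 normalized counts in 3mlpa seeds, against 2594, 2464 and 2866 in 3MWT seeds. It was called higher in 3mlpa, with a log2 fold change of 0.58 ± 0.08 (SE), adjusted p = 0.00152. The call was lost without 3MWT replicate 2 (adjusted p = 0.0103) and in a single fit over 30 libraries (adjusted p = 0.0262).

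**Figure D1:**
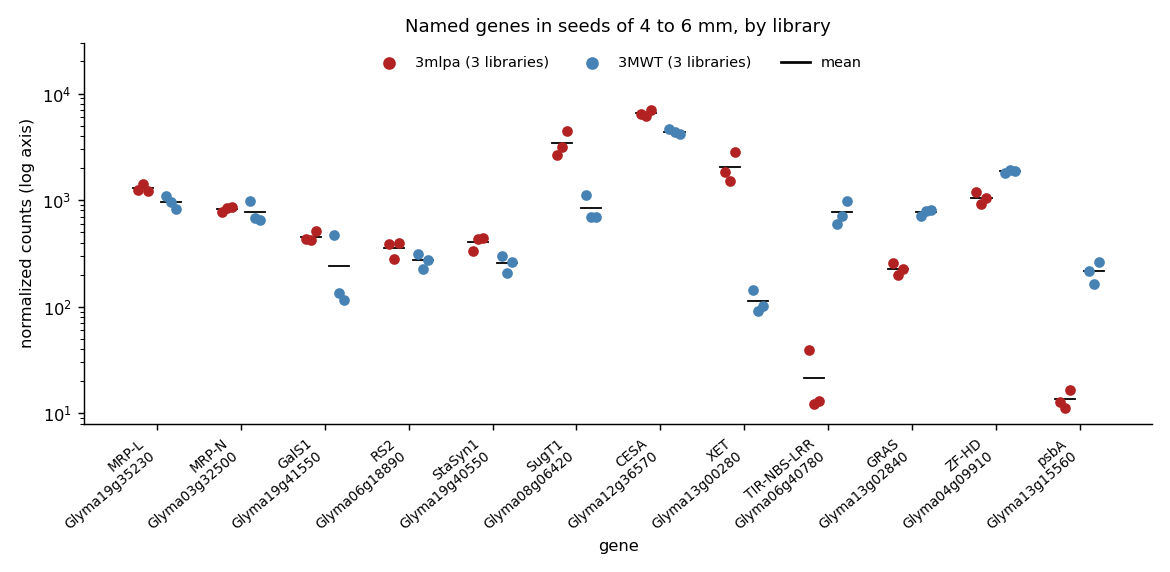
Normalized counts (log axis) of 12 named genes in each 4 to 6 mm library, with 3mlpa (red) left of 3MWT (blue) and a bar at the mean of 3 libraries. SugT1 and the xyloglucan gene Glyma13g00280 lay higher in all 3 mutant libraries, psbA and the resistance gene Glyma06g40780 lay lower, and 3MWT replicate 1 stood apart from its line for GalS1.

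Defence genes were mostly up-regulated. They encode receptors with nucleotide-binding (NB-ARC) and leucine-rich repeat domains that detect pathogens and start cell death, and their partners. Of 60 such genes that the study drew from its DEGs of the early stages, 34 rose, 10 fell and 16 were not called, and the median log2 fold change was 0.93. The list was chosen on libraries that include these, so the count is not independent evidence of the direction. The number that rose was 21 without 3MWT replicate 2 and 22 without 3mlpa replicate 3. Receptors with a TIR domain made up 28 of the list, of which 15 rose and 4 fell. Among them Glyma06g41866 had 61.0, 76.5 and 42.2 normalized counts in 3mlpa seeds, against 1.41, 0 and 0 in 3MWT seeds (adjusted p = 3.28e-04). It had 1 count in all 3MWT libraries together, so that no fold change is given. Glyma09g08850 rose as well, at a low level, with 37.3, 21.7 and 18.5 normalized counts in 3mlpa seeds, against 1.41, 2.62 and 4.07 in 3MWT seeds (log2 fold change 3.09), but was not called without 3MWT replicate 2 (adjusted p = 0.0137). In the opposite direction Glyma06g40780 had 39.1, 12.3 and 13.2 normalized counts in 3mlpa seeds, against 592, 718 and 989.8 in 3MWT seeds. This was the lowest log2 fold change of the list, at −5.15 ± 0.36 (SE), adjusted p = 1.17e-04, and the values at stages 1, 3, 4 and 5 were −2.95, −4.25, −3.86 and −4.92. Glyma06g40710 and Glyma06g41896, which carry neighbouring identifiers on chromosome 6, fell as well (−3.35 and −2.79). The TIR gene of highest mean count, Glyma12g16450, overlapped between the lines (0.34, adjusted p = 0.153). Near-identical paralogs are common in this family. Only uniquely aligned reads were counted, so reads that such paralogs share were left out, and how far this changed their counts is uncertain.

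Of 14 NB-ARC genes 8 rose and 2 fell. Glyma14g38561 had 70.1, 98.2 and 71.2 normalized counts in 3mlpa seeds, against 4.22, 7.86 and 6.51 in 3MWT seeds (log2 fold change 3.64). Its neighbour by identifier, Glyma14g38533, was lower, with 131, 129 and 199 normalized counts in 3mlpa seeds, against 646, 718 and 770.2 in 3MWT seeds (log2 fold change −2.21). The 2 genes thus moved in opposite directions, each with no overlap between the lines. Among 8 genes with leucine-rich repeat and NB-ARC domains, 4 rose and 3 fell, and Glyma03g04030 rose most, with 121, 97.2 and 112 normalized counts in 3mlpa seeds, against 8.44, 11.8 and 22.0 in 3MWT seeds (log2 fold change 2.87). ADR1-L1 genes encode helper receptors of cell death. Glyma17g36420 had 481, 429.6 and 478 normalized counts in 3mlpa seeds, against 255, 207 and 233 in 3MWT seeds and was called (log2 fold change 1.00 ± 0.10 (SE), adjusted p = 4.67e-04). The other ADR1-L1 gene, Glyma14g08700, had 136, 135 and 150.3 normalized counts in 3mlpa seeds, against 108, 78.6 and 103 in 3MWT seeds, which did not overlap but missed the threshold (0.53, adjusted p = 0.0320). Bcl-2-associated athanogene 1 genes encode co-chaperones that regulate cell death. Glyma16g32280 had 393, 394 and 405 normalized counts in 3mlpa seeds, against 135, 129.7 and 123 in 3MWT seeds (log2 fold change 1.62 ± 0.09 (SE), adjusted p = 5.33e-05), and Glyma16g32290 rose by 1.07 on the log2 scale.

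Genes of glucan metabolism were up-regulated with few exceptions. Of 28 tested, 19 rose and 1 fell, with a median log2 fold change of 1.60. The study had picked them as DEGs of stages 1 and 2, so the count is not independent evidence of the direction. Cellulose synthases spin the cellulose of the cell wall, and 10 of 12 tested rose. Glyma09g05630 had 969, 1260.4 and 917 normalized counts in 3mlpa seeds, against 250.4, 326 and 229 in 3MWT seeds (log2 fold change 1.97 ± 0.16 (SE), adjusted p = 2.17e-04). Glyma15g16900 had 237, 296 and 208 normalized counts in 3mlpa seeds, against 60.5, 65.5 and 40.7 in 3MWT seeds, and both genes lay clear of the 3MWT range. The most abundant member, CESA (Glyma12g36570), had 6387, 6145 and 7046 normalized counts in 3mlpa seeds, against 4668, 4342 and 4136 in 3MWT seeds, a smaller but called difference of 0.57 ± 0.08 (SE), adjusted p = 0.00198. That call was lost without 3MWT replicate 2 (adjusted p = 0.0129), with the replicate number as a block (0.0111) and in the single fit (0.0159). Glyma02g47076 was the 1 member that fell, with 477, 392 and 475 normalized counts in 3mlpa seeds, against 906, 783 and 627 in 3MWT seeds (−0.78, adjusted p = 0.00454), and it kept its call in 2 of the 6 fits without 1 library.

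Xyloglucan endotransglucosylase/hydrolases (XET) cut and rejoin the xyloglucan chains that tie cellulose fibres, which lets walls extend. Of 16 genes 9 rose and none fell, and all 16 log2 fold changes were above 0. Glyma13g00280 had 1845, 1521 and 2813 normalized counts in 3mlpa seeds, against 145, 91.7 and 102 in 3MWT seeds. This was the largest difference among the abundant XET genes, with a log2 fold change of 4.20 ± 0.27 (SE), adjusted p = 7.76e-05, and its values at stages 1, 3, 4 and 5 were 2.80, 3.23, 1.82 and 3.24, called at stages 4 and 5. Glyma13g39710 had 744, 1016 and 905 normalized counts in 3mlpa seeds, against 286, 318 and 214 in 3MWT seeds (log2 fold change 1.72). Glyma15g18360 was not detected in 3MWT but varied widely in the mutant line, with 186, 18.9 and 276 normalized counts, and was not called (adjusted p = 0.0112). The most abundant XET gene by mean, Glyma05g26960, had 1659, 1318 and 1370.1 normalized counts in 3mlpa seeds, against 1023, 1073 and 1253 in 3MWT seeds, which did not overlap but was not called (0.37, adjusted p = 0.0358).

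Transporters of the multidrug classes all rose: 29 of 29 genes were called higher in 3mlpa, with a median log2 fold change of 1.20. The study selected these genes as up-regulated at this stage in these libraries, so their direction is no independent result and their sizes are given as a description. They comprise 15 genes of the major facilitator superfamily (MFS), 6 MATE efflux carriers, 5 multidrug resistance-associated proteins and 3 other ATP-binding cassette transporters. The MFS gene Glyma18g11640 had 84.6, 90.6 and 94.0 normalized counts in 3mlpa seeds, against 7.03, 7.86 and 4.07 in 3MWT seeds (log2 fold change 3.87). The most abundant MFS gene, Glyma07g40250, had 3984, 4484 and 3791 normalized counts in 3mlpa seeds, against 2265, 1405 and 1655 in 3MWT seeds (1.20). The MATE gene Glyma17g14550 had 46.4, 68.0 and 50.1 normalized counts in 3mlpa seeds, against 11.3, 3.93 and 5.69 in 3MWT seeds (3.00). Among the relatives of MRP-L and MRP-N, Glyma20g30490 was most abundant and had 1431, 1907 and 1575 normalized counts in 3mlpa seeds, against 796, 677 and 709 in 3MWT seeds (log2 fold change 1.17 ± 0.12 (SE), adjusted p = 4.41e-04). The other 4 multidrug resistance-associated genes had log2 fold changes of 0.77 to 1.33. Between 22 and 28 of the 29 genes were called without 1 library.

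A wider view of transport came from 89 genes that the deposited gene ontology (GO) outputs of the other stages list under transmembrane transport. These were DEGs of the same lines at other seed lengths, so the share called is not comparable with that of all genes. This holds for all GO counts below, and the storage classes also include DEGs of this stage. At this stage 33 rose, 21 fell and the median was 0.17. The number that fell was 6 to 11 without 3mlpa replicate 1, 2 or 3 or 3MWT replicate 2 or 3. Glyma13g02146, also listed under ion transport, had 247, 246 and 236 normalized counts in 3mlpa seeds, against 4.22, 9.17 and 3.25 in 3MWT seeds (log2 fold change 5.50 ± 0.26 (SE), adjusted p = 2.45e-05). In the opposite direction Glyma17g11705, listed under ion transport, had 1235, 1341 and 1333 normalized counts in 3mlpa seeds, against 4646, 4094 and 4112 in 3MWT seeds (−1.72 ± 0.08 (SE), adjusted p = 2.45e-05). Both genes stood apart in all libraries of the stage. Of 9 oligopeptide transport genes 4 rose and 2 fell, and Glyma08g09690 had 84.6, 81.2 and 85.2 normalized counts in 3mlpa seeds, against 28.1, 27.5 and 25.2 in 3MWT seeds (1.64), clear of the 3MWT range.

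**Figure D2:**
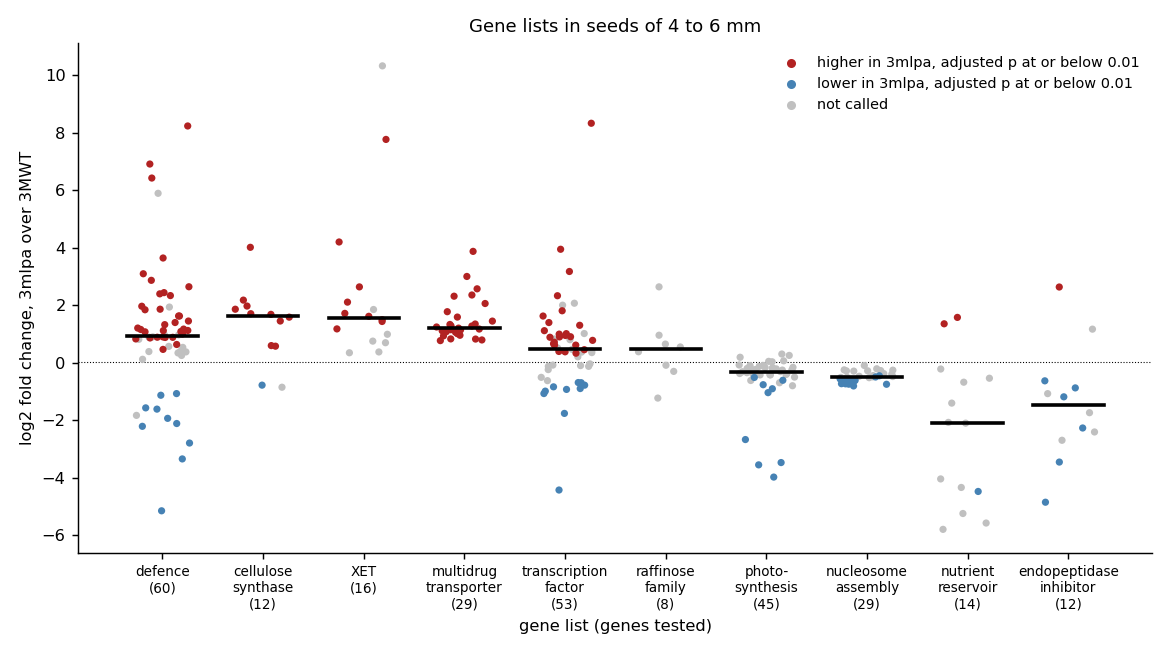
Log2 fold change (3mlpa over 3MWT) of each gene of 10 gene lists in 4 to 6 mm seeds, with called genes in colour, uncalled genes in grey and a bar at the list median. Defence, glucan and multidrug transporter genes lay mostly above 0, with medians of 0.93 for defence and 1.20 for multidrug transporters, and 29 of 29 nucleosome assembly genes lay below 0. The axis shows fitted values, which are no bound for genes with no counts in 3MWT.

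Transcription factor families moved in different directions. The families were chosen by the study as over-represented among its DEGs, these libraries included. Only members that were DEGs were listed, so the counts are not shares of whole families. Of 53 genes 24 rose and 10 fell here, with a median of 0.46. The number that rose was 15 without 3mlpa replicate 1, 13 without 3mlpa replicate 3 and 11 without 3MWT replicate 2. WRKY factors act in defence signalling, and 5 of 14 rose and none fell. Glyma03g37940 had 318, 306 and 333 normalized counts in 3mlpa seeds, against 136, 83.8 and 92.7 in 3MWT seeds (log2 fold change 1.62 ± 0.17 (SE), adjusted p = 5.47e-04). The ZIM factors repress jasmonate signalling, and all 3 that the study listed rose. They were its DEGs of this stage in these libraries, so the shared call is no independent result. Glyma17g04850 had 197, 234 and 249 normalized counts in 3mlpa seeds, against 97.1, 76.0 and 85.4 in 3MWT seeds (log2 fold change 1.40), and its values at stages 1, 3, 4 and 5 were 0.14, 0.46, 0.45 and 0.14. CAMTA factors bind calmodulin and respond to calcium. Of 4 genes 3 rose, by 0.71 to 0.99 on the log2 scale, and Glyma08g14370 had 298, 279 and 284 normalized counts in 3mlpa seeds, against 138, 166 and 129 in 3MWT seeds. SNF2 genes encode chromatin remodelling enzymes, and 4 of 6 rose by small amounts, led by Glyma07g31180 (0.89 ± 0.08 (SE), adjusted p = 2.53e-04). The 1 growth-regulating factor, Glyma19g28010, had 289, 232 and 308 normalized counts in 3mlpa seeds, against 132, 129.7 and 148 in 3MWT seeds (1.01).

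All 5 listed zinc finger homeodomain (ZF-HD) genes fell, with a median log2 fold change of −0.90, and each was lower in all 3 mutant libraries. The study had picked these genes as DEGs of this stage in these libraries, so their shared call is no independent result. The most abundant, Glyma04g09910, had 1182, 913 and 1039.7 normalized counts in 3mlpa seeds, against 1784, 1931 and 1895 in 3MWT seeds (−0.84 ± 0.10 (SE), adjusted p = 8.07e-04). TCP factors regulate cell proliferation, and 3 of 8 rose while 4 fell. Glyma06g34330 had 1084, 1082 and 1106 normalized counts in 3mlpa seeds, against 2181, 2445 and 2259 in 3MWT seeds (−1.07 ± 0.07 (SE), adjusted p = 8.56e-05), and its lines stood well apart. Glyma09g42140 and Glyma09g42120, whose identifiers lie close together on chromosome 9, went in opposite directions. Glyma09g42140 was detected only in 3mlpa, and Glyma09g42120 had 0, 0 and 2.64 normalized counts in 3mlpa seeds, against 14.1, 30.1 and 22.0 in 3MWT seeds and kept its call in 2 of the 6 fits without 1 library. Of 11 GRAS factors, a family that includes regulators of gibberellin signalling and of root and shoot growth, 5 rose and 1 fell. Glyma04g28490 had 305, 308 and 225 normalized counts in 3mlpa seeds, against 33.8, 40.6 and 21.1 in 3MWT seeds (3.17). The most abundant GRAS gene, Glyma13g02840, was the 1 that fell, with 255, 200.2 and 228 normalized counts in 3mlpa seeds, against 716, 796 and 805 in 3MWT seeds (−1.76 ± 0.10 (SE), adjusted p = 5.65e-05).

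Among 157 genes listed under regulation of transcription at the other stages, 54 rose and 23 fell, with a median of 0.51. Without 3MWT replicate 2 the counts were 27 and 13, without 3mlpa replicate 2 they were 33 and 13, without 3mlpa replicate 3 they were 33 and 14, and without 3mlpa replicate 1 the number that fell was 15. Glyma13g38910 had 421, 386 and 457 normalized counts in 3mlpa seeds, against 127, 87.8 and 91.9 in 3MWT seeds (2.06), and Glyma10g29760 had 77.3, 69.9 and 83.5 normalized counts in 3mlpa seeds, against 349, 319.6 and 311 in 3MWT seeds (−2.08). Neither pair of ranges overlapped. Glyma14g07800 also fell, with 296, 335 and 330.4 normalized counts in 3mlpa seeds, against 827, 999 and 897 in 3MWT seeds (−1.50). Protein kinases, under protein amino acid phosphorylation, rose more often than they fell, with 56 up-regulated and 13 down-regulated of 143 and a median of 0.58. The counts were 32 and 8 without 3mlpa replicate 2 or without 3MWT replicate 2, and the number that rose was 36, 34 and 37 without 3mlpa replicate 1, 3mlpa replicate 3 and 3MWT replicate 3. Glyma08g23340 had 988, 1015 and 1342 normalized counts in 3mlpa seeds, against 353, 351 and 293 in 3MWT seeds (1.75).

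Genes of protein synthesis were lower in 3mlpa by small amounts. The translation term includes ribosomal proteins. Of 138 such genes listed at the other stages 91 fell and 5 rose, with a median log2 fold change of −0.48, and 128 values were below 0. The number that fell was 39 and 45 without 3mlpa replicate 2 or 3, and 40 and 56 without 3MWT replicate 2 or 3. It was 42 with the replicate number as a block. Glyma05g00780, listed under translational elongation, is typical in size, with 5723, 5664 and 5421 normalized counts in 3mlpa seeds, against 8618, 8626 and 9173 in 3MWT seeds (−0.65 ± 0.07 (SE), adjusted p = 6.31e-04). Larger differences were seen in single genes. Glyma06g42680 had 504, 482 and 579 normalized counts in 3mlpa seeds, against 1863, 1539 and 1633 in 3MWT seeds (−1.68), whereas Glyma02g28612 had 235, 200.2 and 184 normalized counts in 3mlpa seeds, against 4.22, 11.8 and 9.76 in 3MWT seeds (4.53). Of 22 protein folding genes 11 fell and 2 rose, and the number that fell was 3 and 2 without 3mlpa replicate 2 or 3, and 4 and 6 without 3MWT replicate 2 or 3. Glyma03g41210, of smallest p among those that fell, had 816, 801 and 615 normalized counts in 3mlpa seeds, against 1463, 1734 and 1746 in 3MWT seeds (−1.15).

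Nucleosome assembly genes, which encode the histones that package DNA in dividing cells and their partners, were below 0 in all 29 cases when no library was left out, with a median of −0.49. Of these 12 fell and none rose. The summed level was 3708, 3881 and 3621 CPM (counts scaled to the same library total) in 3mlpa, against 3990, 5459 and 5487 in 3MWT, and 3MWT replicate 1 lay nearest to the mutant libraries. Without that library 24 genes were called lower, without 3MWT replicate 2 none was, and without 3mlpa replicate 1, 2 or 3 or 3MWT replicate 3 the number was 5, 4, 2 and 6. Glyma05g32200 had 1524, 1636 and 1518 normalized counts in 3mlpa seeds, against 2194, 2674 and 2886 in 3MWT seeds (−0.73 ± 0.10 (SE), adjusted p = 0.00177). Glyma12g07943 had 1538, 1674 and 1524 normalized counts in 3mlpa seeds, against 2251, 2987 and 3052 in 3MWT seeds (−0.81 ± 0.12 (SE), adjusted p = 0.00194). Neither was called without 3MWT replicate 2, nor was Glyma12g07943 without 3mlpa replicate 3. Both lay below the 3MWT range, and 21 of the 29 genes did, against 22.3 % of all genes tested.

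Photosynthesis genes, whose proteins form the photosystems and their light-harvesting antennae in green seed tissue, differed little in total. Their summed level was 3983, 3511 and 4294 CPM in 3mlpa, against 4815, 4041 and 3882 in 3MWT, which overlapped. Of 45 genes that the study listed from its DEGs of stages 3 to 5, 9 fell and none rose here. The median was −0.31, 39 values were below 0 and 25 genes were lower in all 3 mutant libraries. Of all genes tested 22.3 % were lower in this way. The number that fell was 5 without 3MWT replicate 2. Among 57 genes that the GO outputs of the other stages list under photosynthesis, 15 fell and 2 rose. Without 1 library 11 to 13 of these fell and 1 to 2 rose. Glyma15g40131, detected only in 3mlpa, was 1 of those that rose and is not among the 45. PsaF (Glyma05g00620), a subunit of photosystem I, had 4439.8, 3709 and 4056 normalized counts in 3mlpa seeds, against 7700.5, 6407 and 6635 in 3MWT seeds (−0.77 ± 0.10 (SE), adjusted p = 0.00126). The psaD gene Glyma20g28300 had 1527, 1411 and 1541 normalized counts in 3mlpa seeds, against 2126, 2129.6 and 2132 in 3MWT seeds (−0.51), and the psbX gene Glyma09g07880 had 232, 194 and 215 normalized counts in 3mlpa seeds, against 473, 373 and 360.3 in 3MWT seeds (−0.91). All 3 genes lay below the 3MWT range. The most abundant member, the light-harvesting gene Glyma08g08770, had 19924, 16682 and 23358 normalized counts in 3mlpa seeds, against 18934, 14956 and 14740.4 in 3MWT seeds, which overlapped and was not called (0.30, adjusted p = 0.151).

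The genes annotated as psbA and psbE stood apart from this list by size. The psbA gene Glyma13g15560 had 12.7, 11.3 and 16.7 normalized counts in 3mlpa seeds, against 218, 165 and 264 in 3MWT seeds (log2 fold change −3.98 ± 0.24 (SE), adjusted p = 7.35e-05). The psbE gene Glyma12g36132 had 11.8, 19.8 and 15.8 normalized counts in 3mlpa seeds, against 253, 140.1 and 169 in 3MWT seeds (−3.55), and the psbE gene Glyma15g38110 was near 0 in the mutant line (−3.47) and kept its call in 1 of the 6 fits without 1 library. In most plants these proteins are encoded in the plastid genome. The summed level of the 3 genes was 1.24, 1.34 and 1.46 CPM in 3mlpa, against 20.2, 13.5 and 19.4 in 3MWT. The ratio of non-unique to unique alignments given above was also higher in 3MWT. Within 3MWT the summed level followed the order of that ratio at stages 4 and 5, but not at this stage or at stages 1 and 3. The part of that ratio in the result was not tested.

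A run of neighbouring identifiers on chromosome 13 was also far lower in 3mlpa, and it was chosen after its values were seen. It holds 104 genes in the files, of which 36 were tested, 31 fell and none rose, with a median log2 fold change of −3.68. The called genes ranged from −5.38 to −1.32. Summed over the run, the level was 107, 91.1 and 109 CPM in 3mlpa, against 1017, 789.5 and 1489 in 3MWT, which lay far apart and followed the order of the non-unique ratios within 3MWT. No gene of the run was called higher, and its medians at the other stages lay between −3.49 and −2.79. The part of the alignments in this result was not tested. Over whole chromosomes the share of genes called ranged between 11.8 % for chromosome 12 and 16.4 % for chromosome 3. Among the 100 genes nearest to MRP-L by identifier, 6 rose and 8 fell (14 %), and among the 100 nearest to MRP-N, 5 rose and 5 fell (10 %).

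Values for the seed storage genes depended on single libraries. The deposited GO outputs place 14 genes under nutrient reservoir activity, the term of the storage globulins. Of these, 11 were in the output of this stage and so were picked as DEGs on these libraries. Their summed level was 1609, 1068 and 3471 CPM in 3mlpa, against 19841, 4515 and 2792 in 3MWT, where replicate 1 stood far above the rest. The median log2 fold change was −2.09, −0.83 without 3MWT replicate 1 and −3.29 without 3mlpa replicate 3. Of the 14 genes 2 rose and 1 fell. The counts were 1 and 0 without 3MWT replicate 2 or 3mlpa replicate 3, 1 and 2 without 3MWT replicate 3, and 1 and 1 without 3mlpa replicate 1 or 2. Glyma10g39150, the most abundant, had 21983, 14521 and 48561 normalized counts in 3mlpa seeds, against 257772, 64722 and 42831 in 3MWT seeds. The lines overlapped and it was not called (−2.10, adjusted p = 0.0496). Glyma03g38630 rose, with 425, 364 and 387 normalized counts in 3mlpa seeds, against 184, 156 and 124 in 3MWT seeds (1.35 ± 0.15 (SE), adjusted p = 5.96e-04). The second storage class, endopeptidase inhibitors that block digestive proteases, summed to 1905, 1082 and 2105 CPM in 3mlpa, against 11404, 5901 and 4356 in 3MWT. These did not overlap. Of the 13 genes of this class, 7 were in the output of this stage, so this separation is not independent of how they were picked. Of the 12 tested, 6 fell and 1 rose. The number that fell was 3 without 3MWT replicate 2, and 2, 1 and 1 without 3mlpa replicate 1, 2 or 3. Of the 6 that fell, Glyma16g33800 alone kept its call in all 6 fits without 1 library. It had 714, 666 and 752 normalized counts in 3mlpa seeds, against 1354, 1180.0 and 1379 in 3MWT seeds (−0.88). The most abundant inhibitor gene, Glyma08g45531, had 27184, 15808 and 30039 normalized counts in 3mlpa seeds, against 186335, 94089.8 and 72100.0 in 3MWT seeds (−2.27 ± 0.37 (SE), adjusted p = 0.00313) and kept its call in 3 of the 6 fits without 1 library. Glyma08g45580 was the 1 that rose, with 775, 614 and 613 normalized counts in 3mlpa seeds, against 109.7, 131 and 86.2 in 3MWT seeds (2.63).

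**Figure D3:**
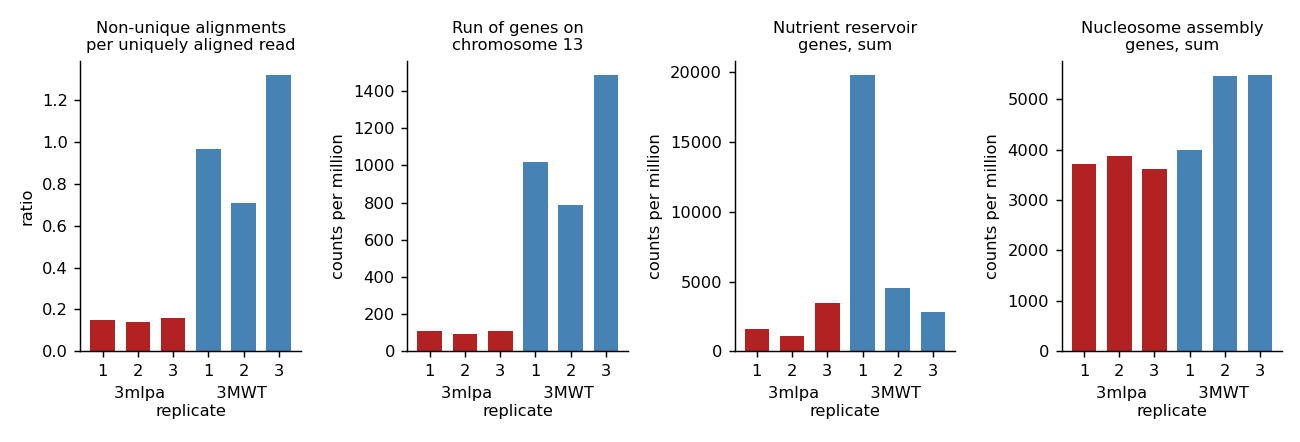
Bars give, for each 4 to 6 mm library, the non-unique alignments per uniquely aligned read and the summed CPM of the chromosome 13 run, the nutrient reservoir genes and the nucleosome assembly genes, with 3mlpa (red) left of 3MWT (blue). The first 2 measures separate the lines widely, at 107, 91.1 and 109 against 1017, 789.5 and 1489 CPM for the run. The nucleosome assembly sums separate them narrowly, with 3881 the highest in 3mlpa and 3990 the lowest in 3MWT. For the storage genes 3MWT replicate 1 stands apart at 19841.

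Proteases and enzymes of metabolism changed in both directions. Of 65 proteolysis genes listed at the other stages 24 rose and 8 fell. Glyma02g37610 was among the most abundant genes named here, with 21135, 22106 and 22900.4 normalized counts in 3mlpa seeds, against 8172, 7021 and 8758 in 3MWT seeds (1.47 ± 0.10 (SE), adjusted p = 1.05e-04). It was lower in 3mlpa at stage 5, at −2.43. Glyma11g09420 had 436, 496 and 508 normalized counts in 3mlpa seeds, against 99.9, 72.0 and 68.3 in 3MWT seeds (2.60). Of 19 glycolysis genes 4 rose and 6 fell, and those that fell included Glyma06g03560, with 9.10, 14.2 and 8.79 normalized counts in 3mlpa seeds, against 115, 119 and 103 in 3MWT seeds (−3.39). Glyma08g15280 was detected in only 1 mutant library, with 0, 0 and 6.15 normalized counts in 3mlpa seeds, against 142, 183 and 172 in 3MWT seeds. Of 241 oxidation reduction genes 71 rose and 58 fell, with a median of 0.04, and the number that fell was 38, 31, 37 and 33 without 3mlpa replicate 1, 2 or 3 or 3MWT replicate 2. Glyma03g40870 had 447, 441 and 437 normalized counts in 3mlpa seeds, against 91.5, 76.0 and 74.8 in 3MWT seeds (2.46 ± 0.11 (SE), adjusted p = 2.02e-05), and Glyma08g46610 had 240.2, 269 and 218 normalized counts in 3mlpa seeds, against 7.03, 9.17 and 3.25 in 3MWT seeds (5.31). Both were higher in every mutant library, and both were called higher at stages 1, 3 and 4.

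Some DEGs had counts in 1 line alone, and there were 45 such genes in 3mlpa and 23 in 3MWT. Fold changes of these genes are lower bounds against 3 counts over the 3 libraries of the other line. In 3mlpa the most abundant was Glyma04g27662, with 187, 166 and 166 counts and none in 3MWT, at least 142-fold higher. Of those with a role, Glyma01g06150 (regulation of transcription) had 86, 13 and 122 counts in 3mlpa, at least 60.4-fold higher. Glyma15g40131, listed under photosynthesis, had 63, 49 and 38 counts in 3mlpa, at least 41.0-fold higher, and the TCP gene Glyma09g42140 had 48, 46 and 38, at least 36.1-fold higher. These counts were even among replicates except for Glyma01g06150, which was called narrowly (adjusted p = 0.00947) and not in every fit without 1 library. In 3MWT Glyma02g36640 was most abundant, with no counts in 3mlpa and 448, 456 and 700 in 3MWT, at least 652-fold lower in 3mlpa. Glyma12g17721 (regulation of transcription) had none in 3mlpa and 99, 92 and 144 in 3MWT, at least 136-fold lower. Glyma03g03700 (oxidation reduction) had none in 3mlpa and 88, 75 and 106 in 3MWT, at least 109-fold lower. The number of such genes in 3mlpa was 28 without 3mlpa replicate 3 and otherwise up to 47 without 1 library, and that in 3MWT was 16 to 31.

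Because length set the stage, the lines were also placed on the path of seed growth. Genes that changed in 3MWT between stages 1 and 3, in libraries not used in the comparison above, gave the path, with 4093 genes that rose (9.91 %) and 3292 that fell (7.97 %). The 7385 genes became 2862 and 12688 without 3MWT stage 1 replicate 1 or 2, and 3604, 2908 and 2962 without 3MWT stage 3 replicate 1, 2 or 3. A library at 0 matches 3MWT stage 1 and a library at 1 matches 3MWT stage 3. The positions were 0.500, 0.429 and 0.510 in 3mlpa, against 0.713, 0.582 and 0.535 in 3MWT, and they did not overlap. The mean was 0.480 ± 0.0442 in 3mlpa and 0.610 ± 0.0923 in 3MWT (SD, n = 3 each), a difference of −0.130. The exact permutation test, two-sided, gave p = 0.1, the smallest that 3 against 3 libraries allow. Without 3MWT replicate 1 the difference was −0.0786, and it lay between −0.168 and −0.105 without any other single library of the stage. At stages 4 and 5 the difference was −0.0744 and −0.0509, with exact p of 0.3 and 0.1. At stages 1 and 3 it was 0.0743 and −0.104, with exact p of 0.4 and 0.2. There the 3MWT libraries themselves picked the genes of the path and set its ends at 0 and 1. The values at stages 1 and 3 are therefore no test of a difference between the lines.

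Single genes followed the path in part. Of 4077 genes that rose with growth and were tested here, 819 (20.1 %) were lower and 149 higher in 3mlpa, with a median log2 fold change of −0.26. Of 3269 that fell with growth, 589 (18.0 %) were higher and 133 lower, with a median of 0.23. Most DEGs, 2430 up-regulated and 1821 down-regulated, belonged to neither class, but so did most genes. Of the 33465 genes tested in neither class 7.26 % rose and 5.44 % fell, with a median of 0.02. Over all genes tested these shares were 7.68 and 6.56 %. Of the 45 photosynthesis genes 40 rose with growth in 3MWT, and of 29 multidrug transporter genes 8 fell and 1 rose. Of the 57 defence genes tested for growth 8 fell and 2 rose. Other lists went the other way. Of 29 nucleosome assembly genes 14 fell with growth and 0 rose, while all 29 were below 0 in 3mlpa. Of 27 glucan genes tested for growth 7 rose and 2 fell, while 19 of the list were up-regulated and 1 was down-regulated in 3mlpa. The part of growth position in any of these lists was not tested.

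**Figure D4:**
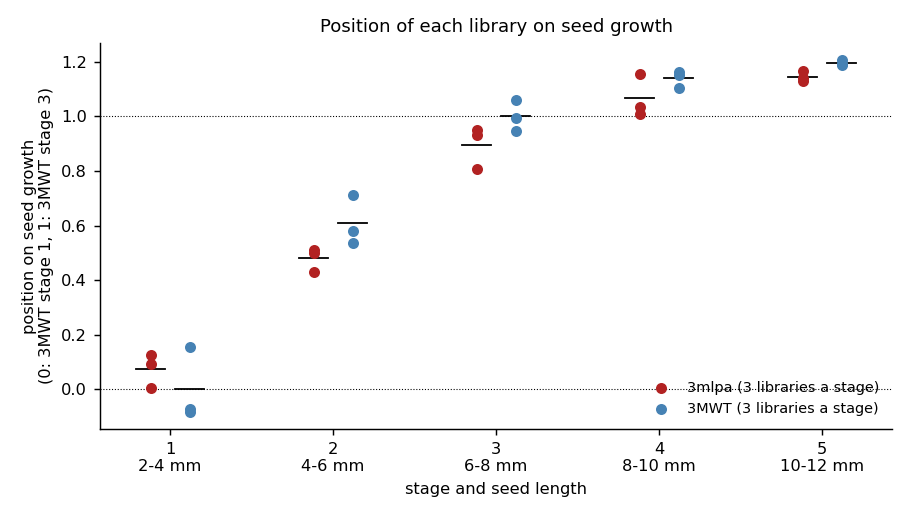
Position of each library between the mean of 3MWT stage 1 (0) and that of 3MWT stage 3 (1), by stage and seed length in mm, with 3mlpa (red) left of 3MWT (blue) and a bar at the mean of 3 libraries. At 4 to 6 mm the 3mlpa libraries lay at 0.429 to 0.510 and the 3MWT libraries at 0.535 to 0.713.

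More genes were called at this stage than at any other. The number of calls also depends on the spread between libraries, which was estimated for each stage on its own. In the study's own test this stage also had the most DEGs, but by a smaller margin. The same test gave 381 DEGs at stage 1 (0.897 %), 503 (1.23 %) at stage 3, of which 242 (0.591 %) were lower, 398 at stage 4 (0.996 %) and 749 at stage 5 (1.91 %). Of the genes up-regulated at 4 to 6 mm, 168, 213, 106 and 123 were also up-regulated at stages 1, 3, 4 and 5. These are 5.18, 6.56, 3.27 and 3.79 % of the up-regulated genes at 4 to 6 mm, and 69.1, 81.6, 74.6 and 55.4 % of those at the other stages. For down-regulated genes the numbers were 120, 221, 167 and 230, or 4.33, 7.97, 6.02 and 8.29 % of those at 4 to 6 mm and 87.0, 91.3, 65.2 and 43.6 % of those at the other stages. Within these, 23 genes were up-regulated and 26 down-regulated at all 5 stages. Called or not, 86.3, 93.6, 74.6 and 66.0 % of the up-regulated genes had a log2 fold change above 0 at stages 1, 3, 4 and 5. For the down-regulated genes 95.4, 97.3, 82.7 and 83.7 % were below 0 there. In the opposite direction, 60 genes up-regulated at 4 to 6 mm were down-regulated at stage 5, among them the protease gene Glyma02g37610.

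A call at 1 stage and not at another is no test of the difference, so the effect of the line was also compared between stages in a fit of all 30 libraries. Of 45815 genes, 2 had a different effect at 4 to 6 mm than at stage 1 (0.00437 %), and both were higher. Glyma15g09500, listed under regulation of transcription, had 775, 937 and 736 normalized counts in 3mlpa seeds, against 248, 242 and 163 in 3MWT seeds, a log2 fold change of 1.92 against −0.38 at stage 1 (difference 2.28 ± 0.31 SE, adjusted p = 0.00377). Glyma20g24620, a transmembrane transport gene, had 905, 1029 and 1002 normalized counts in 3mlpa seeds, against 355, 399 and 313 in 3MWT seeds at 4 to 6 mm, a log2 fold change of 1.47 against −0.18 at stage 1 (difference 1.63 ± 0.23 SE, adjusted p = 0.00377). Neither was called without 3mlpa replicate 2, 3mlpa replicate 3 or 3MWT replicate 3, where the count was 0. Against stage 3 no gene was called by edgeR's quasi-likelihood test, while 3507 had an unadjusted p under 0.05, and no other tool was run on this contrast. Against the mean of the other stages 34 genes were called (0.0742 %), 28 higher (0.0611 %) and 6 lower (0.0131 %). The number was 11, 0 and 2 without 3mlpa replicate 1, 2 or 3, and 40, 4 and 0 without 3MWT replicate 1, 2 or 3. Those with a role were Glyma20g24620 and 8 more, and each was higher at 4 to 6 mm.

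**Figure D5:**
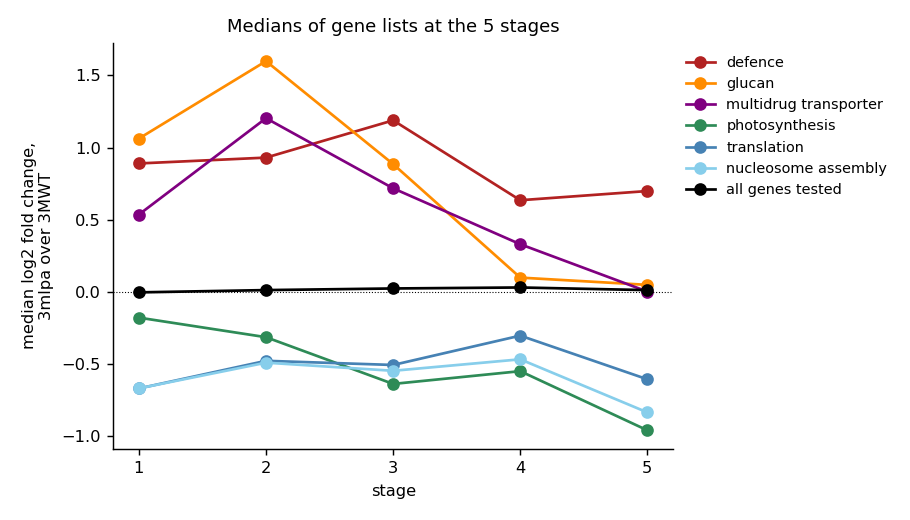
Median log2 fold change (3mlpa over 3MWT) of 6 gene lists and of all genes tested at stages 1 to 5, joined by lines. The glucan median was 1.06 at stage 1, 1.60 at 4 to 6 mm and 0.05 at stage 5, and the multidrug transporter median was 0.54, 1.20 and 0.00 at the same stages, whereas the defence median lay between 0.64 and 1.19.

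The list medians varied along the stages. That of the glucan genes was 1.06, 1.60, 0.89, 0.10 and 0.05 at stages 1 to 5, and that of the multidrug transporters was 0.54, 1.20, 0.72, 0.33 and 0.00. The multidrug list was picked at 4 to 6 mm, which favours a peak there. Defence genes had medians of 0.89, 0.93, 1.19, 0.64 and 0.70 along the stages. The difference between stages was not tested for any list.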

How the data were processed

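Whole-seed mRNA of both lines was sequenced by the study at 5 seed lengths, with 3 libraries per line and stage. The authors aligned reads to the soybean reference genome with TopHat2 2.0.8, and the deposited values are raw counts of uniquely aligned reads per gene from HTSeq in its union mode; their own test was DESeq 1.12.1. The use of strand in counting is not given in the sources used here, so overlapping and antisense genes are uncertain. The files also hold 5 summary rows per library, which were left out (reads in no gene were 18.0 to 23.6 % of the uniquely aligned reads at this stage), and the deposited GO outputs, from which member genes alone were read and no p-value was used.

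Counts were tested with edgeR 4.0.16 in R 4.3.3 (quasi-likelihood test, trimmed mean normalization, a minimum of 10 counts for a gene over all libraries in a fit, Benjamini-Hochberg adjusted p at or below 0.01) on the 6 libraries, and for contrasts between stages on all 30 libraries. Growth positions were projected on log2 CPM with a prior count of 2. Python 3.11.15 with numpy 2.4.6, pandas 2.3.3, scipy 1.17.1 and matplotlib 3.10.9 was used for the rest. Totals of 17588181 to 29476755 counts per library set the precision. Intervals and bounds from counts cover counting error alone. Since seeds were pooled, p-values measure the spread between pools of 1 line.

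Named genes were those with a role in the study or the files: all single and raffinose genes, from each other class up to 3 called genes of largest change whose lines did not overlap, the gene of highest mean count and genes called against the class, and from each GO term up to 2 genes of smallest p in each direction. In counting non-overlap, the lowest library of one line was above the highest of the other. The comparison, lists and members were chosen with earlier results of these data known. The deposited identifiers matched no entry of the annotation at hand, so genes carry the roles given by the study or the GO outputs, and coordinates were not used here. On simulated counts of 41919 genes, 17 of 100 genes changed 1.5-fold and 100 of 100 changed 3-fold were recovered with 1 false call. For the contrasts between stages (45512 genes, 4-fold changes), 175, 163 and 195 of 200 were recovered for stage 1, stage 3 and the mean of the other stages. Alternatives were DESeq2 1.42.0 (size factors, and its Wald test), no filter, filterByExpr, a single fit over 30 libraries, a replicate block, a 2-fold minimum, other genes or the mutant line for the growth path, and each library left out in turn.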

Additional observations from a re-analysis of the deposited data

Results flagged for a closer look

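The effect of the line (3mlpa over 3MWT) at 4 to 6 mm differed from that at other stages for 9 genes with a role, plus 1 more against stage 1 alone, each by a contrast in edgeR's quasi-likelihood test with Benjamini-Hochberg adjustment at 0.01. Against stage 1 the difference in log2 fold change was 2.28 for Glyma15g09500 (regulation of transcription) and 1.63 for Glyma20g24620 (transmembrane transport). Against the mean of the other stages it was 1.35 for Glyma20g24620 and 1.08 for Glyma10g42440, which is listed under transmembrane transport as well. It was 0.98 for the BCL-2-associated athanogene gene Glyma16g32280, 1.82 for the proteolysis gene Glyma08g43330 and 1.36 for the nutrient reservoir gene Glyma03g38630. Among oxidation reduction genes it was 1.84 for Glyma11g07496, 1.38 for Glyma15g01920, 1.57 for Glyma11g07850 and 2.08 for Glyma09g41940. All of these were higher at 4 to 6 mm. In 3mlpa seeds of this stage, Glyma08g43330 had 468, 634 and 629 normalized counts, against 160.4, 78.6 and 77.3 in 3MWT. Glyma09g41940 had 2546, 3138 and 2613 normalized counts in 3mlpa seeds, against 647, 646 and 427 in 3MWT seeds, and Glyma11g07496 had 2979, 3807 and 3214 normalized counts in 3mlpa seeds, against 1062, 1345 and 999 in 3MWT seeds. The contrasts share the libraries of this stage, so the same libraries stand behind each of them.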

How the results depend on the processing

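The main limits are 3 libraries per line, 1 line per genotype and the small size of many differences. The count of 6019 DEGs (3246 up-regulated, 2773 down-regulated) was 3427 (1625 and 1802) in a single fit over 30 libraries and 2088 (1515 and 573) with a 2-fold minimum. Up-regulated genes were 53.9 % of the DEGs and 47.4 % in the single fit. The correlations of deviations from the line means were −0.138, 0.382 and −0.211 for the same replicate numbers, and −0.348 to 0.403 for other numbers. With 3 libraries per line these values cannot decide whether the numbers pair the samples. With the replicate block there were 3018 DEGs (1842 and 1176, 61.0 % up-regulated), and 27 and 13 with counts in 3mlpa or 3MWT alone in place of 45 and 23. Without 1 library the counts were 2249 to 6242 (1371 to 3202 and 878 to 3040), and 28 to 47 and 16 to 31 for those in 1 line. The growth path held 2862 to 12688 genes (3604, 2908 and 2962 without 3MWT stage 3 replicate 1, 2 or 3) and the position difference was −0.168 to −0.0786. The contrast with stage 1 gave 0 to 2 genes, that with stage 3 gave 0, and that with the mean of the other stages gave 0 to 40, and 54 with DESeq2 size factors. The cause was not tested, except that the 2-fold minimum and the fits without a library retain fewer genes or samples by construction. DESeq2's Wald test gave 7636 DEGs, and called 16 photosynthesis and 21 nucleosome assembly genes lower in place of 9 and 12, and 1 raffinose gene higher in place of 0. With the block, the single fit and the 2-fold minimum, the genes called lower were 42, 55 and 3 of 91 for translation, 5, 1 and 0 of 12 for nucleosome assembly, 4, 7 and 1 of 11 for protein folding and 8, 11 and 7 of 21 for transmembrane transport. For oxidation reduction they were 34 and 23 of 58 in the single fit and with the 2-fold minimum. The minimum also left 10 higher and 3 lower transcription factors, 33 and 5 kinases, 30 and 13 genes of regulation of transcription, 20 higher transmembrane transport genes and 5 lower photosynthesis genes. No called value changed direction under an alternative. Among uncalled genes printed with a value, the sign changed without 1 library for MRP-N (−0.00249 without 3MWT replicate 3), Glyma10g28610 (0.0316 without 3mlpa replicate 2) and Glyma20g22700 (0.0722 without 3mlpa replicate 3). Of 138 called genes of the study's lists, 83 were called in all 6 fits without 1 library. Down-regulated genes, with a median of −0.60, lie nearest to the 1.5-fold change of which the simulation recovered 17 of 100. The simulation held far fewer changed genes than the 6019 called here, which makes the adjusted p threshold stricter. Its recovery therefore does not give that of the data.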

Other observations

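Further groups of metabolism, taken from the GO outputs of the other stages and so from DEGs of the same lines, moved in both directions at 4 to 6 mm. Of 84 lipid metabolism genes 25 rose and 16 fell, with a median log2 fold change of 0.31, and Glyma14g06450 had 1323, 1402 and 1339 normalized counts in 3mlpa seeds, against 522, 523 and 552 in 3MWT seeds (1.35 ± 0.07 (SE), adjusted p = 3.27e-05, by edgeR's quasi-likelihood test as elsewhere). Of 26 genes of amino acid biosynthesis 3 rose and 8 fell, with a median of −0.21. Glyma19g29880 rose, with 4903, 5427 and 4677 normalized counts in 3mlpa seeds, against 1860.0, 1556 and 1196 in 3MWT seeds (1.70), and Glyma05g27290 had 247, 216 and 386 normalized counts in 3mlpa seeds, against 1580.0, 1092 and 1066 in 3MWT seeds (−2.13). The lines did not overlap for any of these 3 genes. Of 130 carbohydrate metabolism genes 41 rose and 28 fell, with a median of 0.26. Among them Glyma15g13080 had 1284, 1308 and 1236 normalized counts in 3mlpa seeds, against 667, 613 and 651 in 3MWT seeds (adjusted p = 1.09e-04) and Glyma16g04340 had 659.6, 656 and 719.8 normalized counts in 3mlpa seeds, against 1411, 1471 and 1469.7 in 3MWT seeds (−1.10). Of 11 genes of the response to oxidative stress 3 rose and 3 fell. Microtubule-based movement, a term of kinesins that are active in dividing cells, held 6 genes with a median of −0.21, of which 1 fell. Light harvesting genes numbered 14 with a median of −0.25, and 1 fell. The lists of innate immune response (13 rose and 4 fell of 27) and apoptosis (30 and 8 of 55) share members with the defence list, and the number that rose in the apoptosis list was 19 without 3MWT replicate 2.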
